A study of Mus musculus with 3 samples.

Results

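The endothelial cells of the mouse caput epididymis were taken from a single-cell RNA-sequencing library of that region by the genes each cell carried. A cell with at least 200 detected genes was counted as endothelial when at least 3 of the 7 genes Pecam1, Cdh5, Emcn, Flt1, Ptprb, Plvap and Egfl7 were detected, when these genes together made up at least 8 of every 10000 unique molecular identifiers (UMIs, each standing for 1 captured RNA molecule) and when Krt5, Foxi1 and C1qa, markers of basal cells, clear cells and macrophages, had at most 2 UMIs in all. This gave 318 of 4939 caput cells, or 6.44% (exact 95% binomial interval 5.77 to 7.16%). The same rule gave 72 of 4831 corpus cells, or 1.49% (1.17 to 1.87%), and 20 of 4785 cauda cells, or 0.418% (0.255 to 0.645%). The cells came from untreated wild-type mice, 56 days old, of the C57BL/6 strain by the sample labels and C57Bl/6J by the series design, whose epididymis was cut into caput, corpus and cauda, with 1 library for each. The number of animals behind a library is not stated by the labels. The tissue was digested and strained, red cells were lysed, and the suspension was loaded on a Singleron GEXSCOPE microfluidic chip.

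Because each region had 1 library, no difference below has a replicate check and no p-value is given. Levels are in CPM: the UMIs of a gene, summed over the cells of a group, were divided by all UMIs of that group and scaled to 1000000, with an exact Poisson interval, and ratios of 2 levels carry an exact conditional interval. All intervals are at 95%, and all cover counting error only, not differences between animals or dissections. A gene was called higher or lower by a rule of size: a ratio of at least 4 in either direction, an interval that excludes 2-fold, and at least 100 UMIs in the group where the gene was higher.

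Endothelial cells line every blood and lymphatic vessel. They control what passes between blood and tissue through their junctions, caveolae and fenestrae, and they differ along the vascular tree, with arterial, capillary, venous and lymphatic cells each using their own genes. In the epididymis a dense capillary net surrounds the duct, and that of the initial segment, at the start of the caput, is known for its fenestrated capillaries, in which Plvap forms the diaphragms.

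The caput endothelial cells held 2236551 UMIs in all, with a median of 5274 per cell (1798 to 30127) and a median of 2210 detected genes. The other 4621 caput cells had a median of 5076 UMIs, the corpus endothelial cells 3462.5 and the cauda endothelial cells 4922.5. The median mitochondrial share was 5.17% in caput, 8.84% in corpus and 5.65% in cauda endothelial cells. Across the libraries 23 cell barcodes occurred more than once, and 4 of the caput endothelial cells carried such a barcode. RNA of the principal cells, the secretory epithelium of the duct, was present throughout the caput library: Gpx5, a principal cell gene, was detected in all 318 caput endothelial cells, in 2 of 72 corpus endothelial cells and in 1 of 20 cauda endothelial cells. The 8 principal cell markers took a median of 1.52% of the UMIs of a caput endothelial cell (0.221 to 14.8%), against 1.70% in cells with pericyte and smooth muscle markers, 3.12% in fibroblasts, 3.02% in macrophages and 6.22% in all other caput cells. Gpx5 stood to Lcn8, another principal cell gene, at 2.82 to 1 in the endothelial cells, 2.73 to 1 in the pericyte and smooth muscle cells, 2.98 to 1 in fibroblasts, 2.45 to 1 in macrophages and 3.21 to 1 in all other caput cells.

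**Figure D1:**
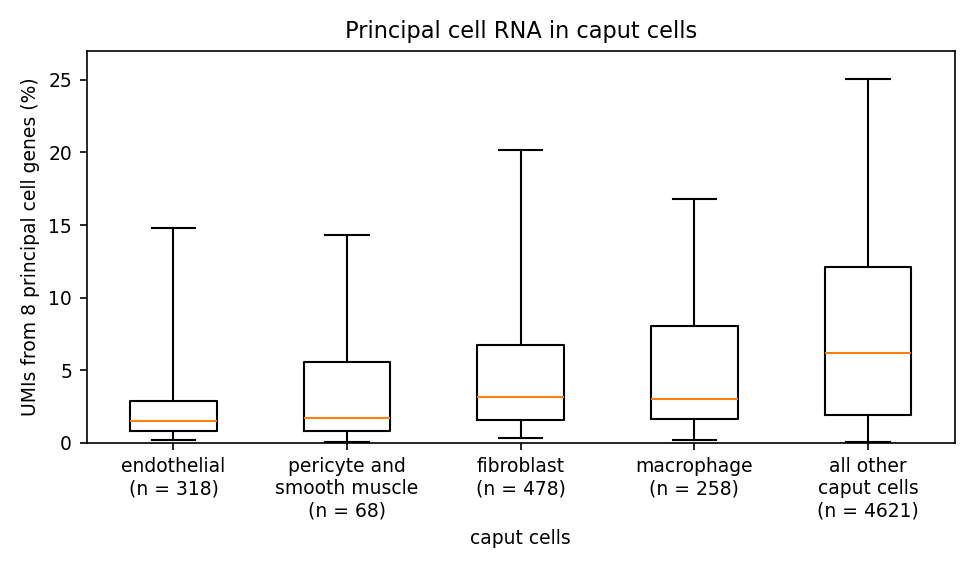
Share of each caput cell's UMIs that came from 8 principal cell genes (y axis, percent) for 5 groups of caput cells (x axis); the box gives the quartiles and median, and the whiskers the lowest and highest cell. The median was 1.52% in endothelial cells and 6.22% in all other caput cells, and no group was free of this RNA.

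At the edge of the rule, the cells with the smallest sums just inside it had 8.07, 8.16 and 8.24 UMIs of the 7 genes per 10000, while those just outside it had 7.04, 6.71 and 6.10. The median sum was 41.0, with a highest value of 118, so most cells lay far from the edge. All 7 genes were detected in 111 of the 318 cells and exactly 3 in 23 cells, while 21 caput cells with enough UMIs but 2 of the genes lay outside. Krt5, Foxi1 and C1qa had no UMI in 239 of the cells, 1 UMI in 63 and 2 UMIs in 16. A further 52 caput cells met both conditions on the 7 genes and were left out because they had more than 2 such UMIs.

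The label was checked against endothelial markers. The genes of the rule were high by construction: Pecam1, the adhesion molecule that joins endothelial cells to each other, stood at 639 CPM (606 to 673) in the endothelial cells and 9.13 CPM in the other caput cells. Emcn, a sialomucin of capillary and venous endothelium, stood at 782 CPM (745 to 819) against 14.6 CPM, and Plvap at 511 CPM (481 to 541) against 9.05 CPM. Flt1, a receptor of vascular endothelial growth factor (VEGF), stood at 739 CPM (704 to 776) against 11.5 CPM, and Ptprb, the endothelial tyrosine phosphatase that acts on Tie receptors and VE-cadherin, at 897 CPM (858 to 937) against 12.1 CPM. Cdh5, which encodes VE-cadherin itself, stood at 232 CPM against 4.31 CPM and Egfl7, a matrix protein secreted by endothelium, at 383 CPM against 15.7 CPM. The rule chose the cells by these values, so they are a description and not a finding.

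The 12 other endothelial markers played no part in the rule, although the cells they were measured in were chosen by it. Summed, these genes stood at 3501 CPM in the endothelial cells, 776 CPM in the pericyte and smooth muscle cells, 182 CPM in fibroblasts, 87.6 CPM in macrophages and 78.9 CPM in all other caput cells. All 11 that had enough UMIs were called higher against the other caput cells, where 464 of 11978 tested genes (3.87%) were called higher and 210 (1.75%) lower; since the rule used that contrast, nothing is read from the count. Kdr, the main VEGF signalling receptor, was detected in 276 of the 318 cells at 779.8 CPM (744 to 817), against 17.8 CPM in other caput cells. Esam, a junctional adhesion molecule, was detected in 280 cells at 713 CPM against 22.7 CPM, and Ramp2, a partner of the adrenomedullin receptor, in 273 cells at 567 CPM against 14.5 CPM. The Tie receptors Tek and Tie1, which bind or modulate the response to angiopoietins, stood at 109.5 CPM (96.3 to 124) against 1.73 CPM and at 114 CPM against 1.91 CPM. Erg, an ETS-family transcription factor of endothelium, stood at 81.4 CPM (70.0 to 94.1) against 1.15 CPM, a ratio of 70.9 (50.9 to 101). Sox18 had too few UMIs for the rule of size, at 37.1 CPM against 0.382 CPM. The markers outside the rule thus fit the label, within the mixed and subdivided make-up described below.

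Sox17 and Esm1, named with the label as marker genes but not used by the rule, behaved differently within the population. Sox17, a transcription factor of arterial endothelium, was detected in 210 of the 318 cells (66.0%) at 422 CPM (395 to 449), against 5.86 CPM in other caput cells, a ratio of 71.9 (62.2 to 83.4). Esm1, a secreted proteoglycan induced by VEGF and typical of growing vessel tips, was detected in 91 cells (28.6%) at 147 CPM (131 to 163), against 3.44 CPM, a ratio of 42.6 (34.8 to 52.5). A UMI of Esm1 was seen in 1.88% of caput fibroblasts and 1.16% of caput macrophages, cell types that should lack the gene, at median depths of 3696 and 3691.5 UMIs.

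**Figure D2:**
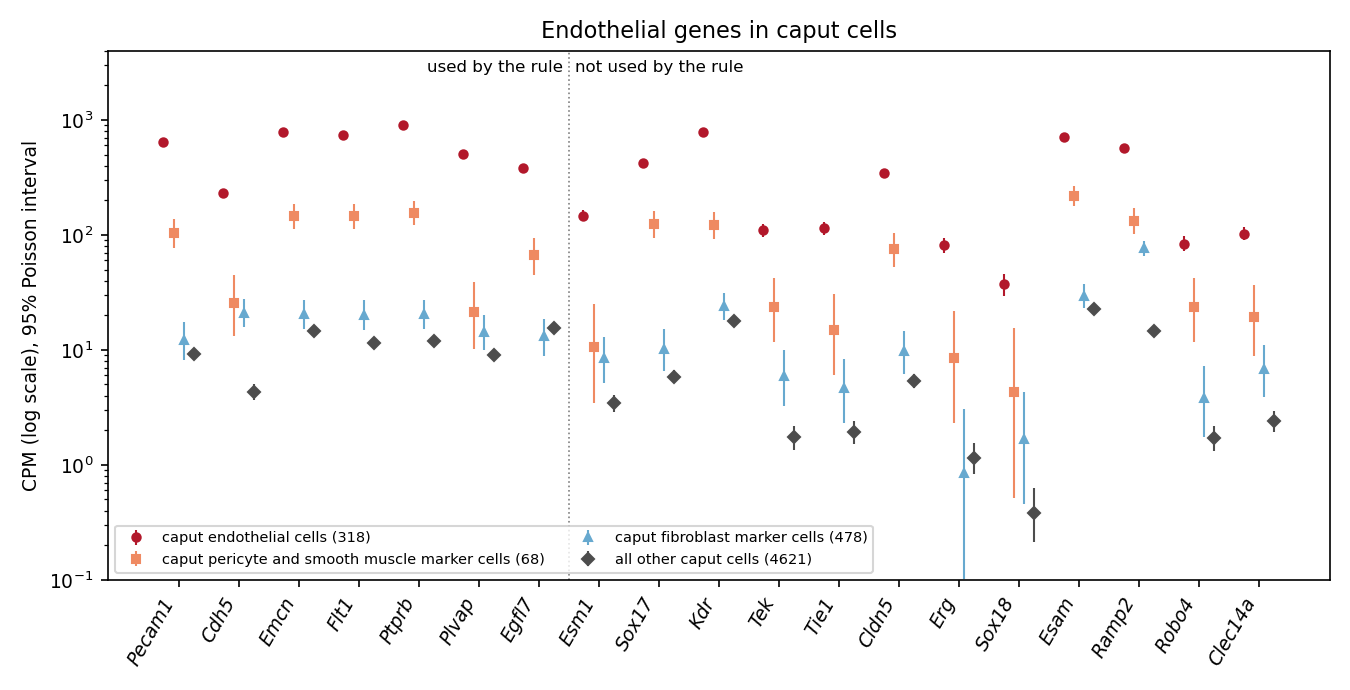
Level of 19 endothelial genes (y axis, CPM on a log scale, with 95% Poisson intervals) in the 318 caput endothelial cells, in caput cells with pericyte and smooth muscle markers, in caput fibroblasts and in all other caput cells; the dotted line parts the 7 genes of the rule from the 12 that it did not use. The endothelial cells lie highest for every gene drawn, and the pericyte and smooth muscle cells lie second.

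Promoters of a few of these genes are shown because ETS-family factors such as Erg bind sequences with a GGAA core and are known regulators of endothelial genes. The sequences run from 250 bases before to 50 bases after the start of the gene, from RefSeq on GRCm38.p6, all on the + strand. The motif CAGGAAG was searched on both strands, so that CTTCCTG marks a match on the other strand, and matches are in capitals. Egfl7, Emcn and Robo4 are shown because they held a match, while the listed promoters of Flt1, Kdr, Tek, Tie1, Cldn5, Clec14a and Adgrl4 held none. Egfl7, at chr2:26580833-26581132, had matches that start at -90 and, on the other strand, at -49 relative to that start site. Of its other listed promoters, not shown, 1 held 1 match and 1 held 0. Emcn, at chr3:137340828-137341127, had 1 match on the other strand at -174, and Robo4, the endothelial guidance receptor, at chr9:37401722-37402021, had 1 match at -50. Esm1, at chr13:113209409-113209708, is shown as the gene on which the comparison of regions turns, and these letters are not in its window.
Egfl7: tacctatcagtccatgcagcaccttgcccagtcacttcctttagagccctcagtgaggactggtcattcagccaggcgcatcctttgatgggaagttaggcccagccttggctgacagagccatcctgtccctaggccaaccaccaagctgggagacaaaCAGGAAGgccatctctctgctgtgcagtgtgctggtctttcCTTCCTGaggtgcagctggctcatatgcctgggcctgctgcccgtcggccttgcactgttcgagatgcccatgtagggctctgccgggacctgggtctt
Emcn: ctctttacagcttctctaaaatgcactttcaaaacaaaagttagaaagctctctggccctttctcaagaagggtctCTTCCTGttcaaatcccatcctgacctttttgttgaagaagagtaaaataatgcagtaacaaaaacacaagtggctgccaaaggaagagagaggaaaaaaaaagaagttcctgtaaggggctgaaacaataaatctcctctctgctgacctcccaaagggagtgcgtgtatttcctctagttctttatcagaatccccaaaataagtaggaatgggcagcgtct
Robo4: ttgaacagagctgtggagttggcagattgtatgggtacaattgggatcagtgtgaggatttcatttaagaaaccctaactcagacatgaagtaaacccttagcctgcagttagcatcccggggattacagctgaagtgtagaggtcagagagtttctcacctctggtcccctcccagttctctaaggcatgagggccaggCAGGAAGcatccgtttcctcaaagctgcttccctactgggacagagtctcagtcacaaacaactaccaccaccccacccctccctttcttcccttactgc
Esm1: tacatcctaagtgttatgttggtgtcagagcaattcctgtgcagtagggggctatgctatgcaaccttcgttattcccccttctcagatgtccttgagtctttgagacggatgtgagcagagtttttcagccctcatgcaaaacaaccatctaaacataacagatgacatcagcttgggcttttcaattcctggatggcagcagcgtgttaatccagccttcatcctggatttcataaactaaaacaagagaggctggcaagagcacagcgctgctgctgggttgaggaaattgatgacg
Of the 7 genes of the rule 3 had a promoter in the table and 2 of these held the motif. Of the 12 other endothelial markers 8 had a promoter and 2 held it, and of 8 principal cell markers 5 had a promoter and 1 held it. Of all 32851 promoters listed, 4359 (13.3%) held CAGGAAG, and 14.8% of the 27025 genes did. The related motif CCGGAAG occurred in 8.86% of all promoters and in none of those matched to the 3 groups of genes. A match is a description of letters, not of a site that a factor uses.

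The 20 genes with the largest ratio against the other caput cells, the genes of the rule aside, were detected in differing numbers of cells. Adgrl4, an adhesion receptor of vascular endothelium, was detected in 229 of the 318 cells at 316 CPM (293 to 339.8) against 4.21 CPM in other caput cells, a ratio of 75.04 (63.3 to 89.5). Cldn5, the tight junction claudin of endothelium, was detected in 126 cells at 344 CPM against 5.38 CPM, a ratio of 64.0 (54.9 to 74.9). Sox17, Erg, Tek, She, Adcy4, Grrp1, Tmem88, Cyyr1 and Rbp7, a retinol-binding protein, belonged to the same group of 20, with ratios between 62.3 for Rbp7 and 78.0 for Grrp1. Unc45b, Chp2 and Bmx, a tyrosine kinase of arterial endothelium, had ratios of 67.7, 66.9 and 63.3. Ptprr, a receptor tyrosine phosphatase, was detected in 120 cells, with a ratio of 61.8 (50.2 to 76.7).

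The other genes among these 20 were each detected in at most 95 of the 318 cells. Lyve1, the hyaluronan receptor of lymphatic endothelium, had the largest ratio at 89.97 (67.01 to 123), but its 124 CPM came from 15 of the 318 cells, against 1.38 CPM in other caput cells. Mmrn1, a multimerin of lymphatic endothelium, likewise came from 19 cells, with a ratio of 73.0. Gkn3, a secreted gastrokine that in mouse marks arterial endothelium, was detected in 38 cells with a ratio of 78.8 (58.3 to 108). Stmn2, a microtubule regulator, was detected in 95 cells at 240.1 CPM (220.2 to 261) against 2.98 CPM, and Fabp4, the fatty acid-binding protein of capillaries and fat, in 44 cells at 237 CPM (217 to 258) against 3.54 CPM.

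Gene lists on endothelial functions were then read one by one, each with the number of its genes called and its median log2 ratio over genes with at least 20 UMIs. The median over all such genes was 0.13 against the other caput cells, 0.10 against the pericyte and smooth muscle cells and 0.11 against fibroblasts. Another scaling, by trimmed mean of M-values, moved every log2 ratio against the other caput cells by -0.25. Against the 68 pericyte and smooth muscle cells 172 of 3560 tested genes (4.83%) were called higher and 15 (0.421%) lower. Against the 478 fibroblasts 308 of 4098 (7.52%) were called higher and 150 (3.66%) lower. These 2 classes share vessel and stroma with the endothelium and were set apart by their own markers, in cells outside the endothelial set.

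Junction and adhesion genes were among those called. Of 20 genes 11 were called higher against the other caput cells and 1 lower, with a median of 3.44; 8 were higher against the pericyte and smooth muscle cells, with a median of 2.10. Cd93, a receptor in endothelial adhesion, stood at 558 CPM in endothelial cells against 9.71 CPM in other caput cells, and Podxl, a sialomucin that keeps the lumen open, at 292 CPM against 5.46 CPM. Ecscr and Clec14a, endothelial surface proteins, stood at 349 CPM against 6.93 CPM and 103 CPM against 2.40 CPM. Cd34, a sialomucin shared with stromal cells, had a smaller ratio of 7.18. The lower gene was Cgn, the epithelial tight junction gene cingulin, at 0.894 CPM against 8.26 CPM. F11r, a junctional adhesion molecule also used by epithelium, stood at 180.2 CPM against 79.5 CPM and was not called.

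Receptors for VEGF, angiopoietins and apelin formed a list in which 10 of 18 genes were called higher against the other caput cells and none lower, with a median of 4.58. The median against the pericyte and smooth muscle cells was 2.31, with 9 called higher, and that against fibroblasts 3.48, with 10 called higher. Nrp1, the VEGF co-receptor, stood at 444 CPM against 24.7 CPM in other caput cells, and Aplnr, the apelin receptor, at 60.8 CPM against 0.994 CPM. Vegfc, a ligand for the lymphatic receptor Flt4, stood at 53.7 CPM against 1.84 CPM. Vegfa, the ligand of Kdr, was not called, at 9.39 CPM in endothelial cells against 21.4 CPM in other caput cells. The list thus held called receptors beside a main ligand that was lower in level in the endothelial cells than in the rest.

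Notch pathway and arterial genes had 12 of 20 called higher against the other caput cells and none lower, with a median of 4.32, and the same count against fibroblasts. Dll4, the arterial Notch ligand, stood at 89.0 CPM against 2.52 CPM, and Sema3g, an arterial semaphorin, at 86.3 CPM against 2.14 CPM. Gja4, a connexin of arterial gap junctions, stood at 256 CPM against 10.96 CPM in other caput cells, but at 160.3 CPM in the pericyte and smooth muscle cells, where it was not called. Hes1, a Notch target used by many cells, stood at 894 CPM against 418 CPM and was not called. Venous genes had 6 of 14 called higher, with a median of 2.97, among them Plvap, a gene of the rule and so high by construction. Vwf, the platelet-binding clotting protein, was detected in 74 cells at 62.1 CPM against 3.65 CPM, and Lrg1 stood at 372 CPM against 48.0 CPM. Nr2f2, the transcription factor of venous identity that stromal cells also use, stood at 146 CPM against 44.8 CPM and was not called. Ackr1, the chemokine-binding receptor of venules, was seen in 17 cells and had too few UMIs for the rule.

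Capillary and lipid uptake genes had 10 of 20 called higher and none lower against the other caput cells, with a median of 4.59. Rgcc, a regulator of the cell cycle that marks capillary endothelium, was detected in 216 of the 318 cells at 779 CPM (743 to 817) against 22.5 CPM, a ratio of 34.6 (31.9 to 37.6). It was also 7.44 times (5.602 to 10.1) the level of the pericyte and smooth muscle cells. Gpihbp1, which carries lipoprotein lipase to the capillary lumen, stood at 418 CPM against 10.0 CPM, and Ly6c1, a surface protein of many endothelial cells, at 1726 CPM against 86.3 CPM. Cd36, the fatty acid transporter, was detected in 25 cells at 57.2 CPM against 8.13 CPM. Of the 3 lipid genes given, Fabp4 and Cd36 were thus in few cells, and Cd36 was not called once cells with stromal markers were left out, as given below.

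Genes of fenestrae, caveolae and transcytosis had 11 of 19 called higher and none lower against the other caput cells, with a median of 2.87. Sdpr, the older symbol of the caveolar coat gene Cavin2, stood at 1073 CPM against 20.5 CPM, Cav1, the main caveolin of endothelium, at 535 CPM against 39.6 CPM, and Scarb1, a lipoprotein receptor, at 434 CPM against 53.5 CPM. Against the pericyte and smooth muscle cells 5 of the 19 were called. Plvap, a gene of the rule and so high by construction, is in both counts. Its ratio to the pericyte and smooth muscle cells was 23.9 (12.9 to 49.9). Cav1 was at 1.59 (1.35 to 1.90) and was not called. Barrier transporters known from brain endothelium had 3 of the 17 measured genes called higher, with a median of 0.89. Those were the drug efflux pumps Abcb1a, at 358 CPM against 6.45 CPM, and Abcg2, at 298 CPM against 24.5 CPM, and the matrix proteoglycan Spock2, at 226 CPM against 10.0 CPM. Mfsd2a, the lipid transporter of the blood-brain barrier, stood at 37.6 CPM against 29.5 CPM, and Slc2a1, the glucose transporter of that barrier, at 40.2 CPM against 11.9 CPM; neither was called. The called members were thus 2 efflux pumps and 1 matrix gene, while the glucose and lipid carriers were low.

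Transcription factors of endothelium had 15 of 26 called higher and none lower against the other caput cells, with a median of 3.91. Klf2 and Klf4, factors induced by blood flow, stood at 884 CPM against 101 CPM and 736 CPM against 135 CPM, and Tcf4 at 663 CPM against 43.7 CPM. Ets1 and Lmo2 had ratios of 31.1 and 45.0. Genes for BMP and TGF-beta signalling had 7 of 20 called higher, with a median of 1.63; among them the co-receptor Eng stood at 292 CPM against 6.55 CPM and the target gene Id1 at 748 CPM against 31.9 CPM. Klf2 was not called against the pericyte and smooth muscle cells, at a ratio of 1.69 (1.48 to 1.94).

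Vascular tone and haemostasis genes had 12 of 24 called higher and none lower, with a median of 3.50. Edn1, the precursor of the vasoconstrictor endothelin, stood at 300.5 CPM against 14.8 CPM, and Ece1, the enzyme that activates it, at 858 CPM against 76.9 CPM. Thbd, the anticoagulant thrombomodulin, had a ratio of 25.8, and S1pr1, the sphingosine phosphate receptor that holds junctions closed, a ratio of 54.3. Basement membrane and matrix genes had 14 of 21 called higher, with a median of 2.74. Col4a1, a collagen chain of the vascular basement membrane, stood at 845 CPM against 40.9 CPM, with 316 CPM in the pericyte and smooth muscle cells. Sparc, a matrix protein, stood at 7028 CPM in the endothelial cells, against 10084 CPM in fibroblasts 3692 CPM in the pericyte and smooth muscle cells, 996 CPM in macrophages and 1554 CPM in all other caput cells.

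Ligands that endothelium offers to its neighbours had 8 of 22 genes called higher and none lower against the other caput cells, with a median of 1.78. Kitl, the ligand of Kit, stood at 538 CPM against 22.2 CPM, Igfbp3, a binding protein of insulin-like growth factors, at 560.2 CPM against 10.4 CPM, and Cxcl12, the chemokine that binds Cxcr4, at 1131 CPM against 115 CPM. Pdgfb, which recruits pericytes, stood at 49.6 CPM against 8.80 CPM. Igfbp5 stood at 193 CPM in endothelial cells and 616 CPM in the pericyte and smooth muscle cells. Genes for leukocyte adhesion and antigen presentation had 2 of the 19 measured called higher, with a median of 1.12. The called ones were Cxcl12, which is on both lists, and the interferon-induced Bst2, at 342 CPM against 63.1 CPM. B2m and H2-K1, of the class I antigen complex, stood at 3159 CPM against 2209.8 CPM and 1617 CPM against 883 CPM, and were not called.

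**Figure D3:**
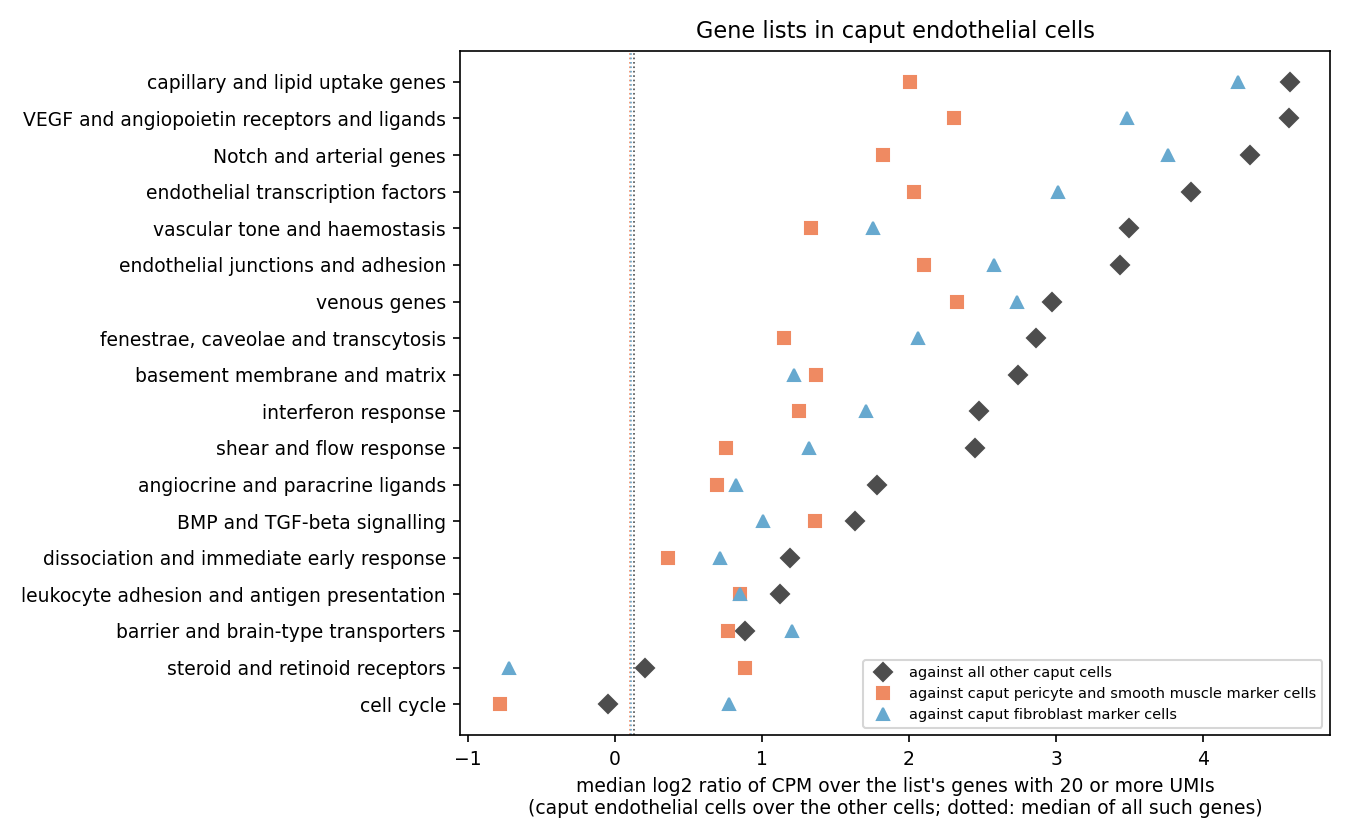
Median log2 ratio (x axis) of 18 gene lists (y axis) in caput endothelial cells over all other caput cells, over caput pericyte and smooth muscle marker cells and over caput fibroblasts, for genes with at least 20 UMIs; dotted lines give the median of all such genes. Capillary genes at 4.59 and VEGF and angiopoietin genes at 4.58 lie far right against the other caput cells, while cell cycle genes lie at -0.04.

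RNA of other cell types was measured beside these values. Pericyte and smooth muscle markers summed to 1727 CPM in the endothelial cells, 233 CPM in the other caput cells and 7487 CPM in the pericyte and smooth muscle cells. Fibroblast markers summed to 1240.3 CPM in the endothelial cells and 18291 CPM in fibroblasts. Macrophage markers summed to 207 CPM in the endothelial cells and 5197 CPM in macrophages. Basal cell markers summed to 228 CPM in the endothelial cells and 388 CPM in other caput cells. Of these 6 basal markers, 1 was called higher and 3 lower than in the other caput cells, with a median log2 ratio of -1.99. The basal sum thus mixes both directions, and its Itga6 is also on the basement membrane list. By marker rules of the same kind, 75 of the 318 cells (23.6%) also met the one for pericytes and smooth muscle, with a median of 8884 UMIs, 45 (14.2%) the one for fibroblasts and 16 (5.03%) the one for macrophages. In all, 109 cells (34.3%) met at least 1 of these 3 rules, with a median of 6677 UMIs, and 209 (65.7%) met none, with a median of 4725 UMIs. Principal cell genes took over 5% of the UMIs in 43 cells (13.5%). Whether those cells were doublets was not tested. Without the 109 cells, 300 genes were called higher against the other caput cells. The 209 cells that remained held Cd36 at 5.27 CPM, against 57.2 CPM in all 318, and at this level it was not called. Rgs5 stood at 113 CPM in the 209 cells against 891 CPM in all, Igfbp5 at 90.3 CPM against 193 CPM and Ndufa4l2 at 8.28 CPM against 72.9 CPM, and none of these was called. Fabp4 stood at 92.5 CPM against 237 CPM and was still called, at a ratio of 26.1 (20.3 to 33.5), while Sparc, at a ratio of 3.96, was not. Esm1 stood at 162 CPM in the 209 cells against 147 CPM in all, and Lyve1 at 192 CPM against 124 CPM. Without the 43 cells rich in principal cell RNA the count of genes called lower was 503 in place of 210.

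Vessel type was read from sets of markers, with a cell counted for a type when at least 2 of its markers were detected; a cell could count for several. Among the 318 caput cells 212 (66.7%, 61.2 to 71.8%) had 2 arterial markers, 257 (80.8%) had 2 capillary markers, 116 (36.5%) had 2 venous markers and 17 (5.35%, 3.14 to 8.42%) had 2 lymphatic markers. After every cell was thinned to 1500 UMIs these shares were 32.1%, 50%, 8.18% and 5.03% (2.90 to 8.04%). Lymphatic cells thus kept their share under thinning, while the arterial, capillary and venous shares were lower after it.

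The 318 cells were grouped by their 1000 most variable genes into 8 subclusters. A group of 70 cells (22.0%, subcluster 0) had capillary markers and is called capillary-like. Rgcc stood there at 2203 CPM (2052 to 2362) against 507 CPM in the other 248 endothelial cells, Kdr at 1869 CPM (1729.9 to 2016) against 572 CPM and Gpihbp1 at 927 CPM (830.4 to 1032) against 321 CPM. Plvap stood at 980.3 CPM against 421 CPM, Cd300lg, a capillary surface receptor, at 187 CPM against 41.0 CPM, and Esm1, seen in 36 of the 70 cells, at 471 CPM (402 to 547) against 84.7 CPM. Nr5a2, an orphan nuclear receptor named for its lead after its values were seen, was detected in 24 cells at 78.0 CPM (51.8 to 113) against 11.7 CPM. Fabp4 and Cd36 had no UMI in any of the 70 cells, which bounds each at 10.3 CPM. The capillary-like cells therefore combined the fenestral diaphragm gene and Gpihbp1 with an absence of these 2 fatty acid genes at this depth. As the clustering used these genes, their differences between subclusters describe the groups and test nothing.

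A group of 34 cells (subcluster 3) was arterial-like. Stmn2, seen in 30 of them, stood at 1109 CPM (973 to 1258) against 147 CPM in the other endothelial cells, and Gkn3, seen in 24, at 508 CPM (418 to 612) against 63.4 CPM. Bmx stood at 485 CPM (397 to 587) against 107 CPM, Edn1 at 1141 CPM (1003 to 1292) against 210.4 CPM and Sox17 at 975 CPM (847 to 1115) against 362 CPM. Cytl1, a small secreted protein named for its lead after its values were seen, came from 10 cells at 236 CPM (175 to 309.7) against 19.8 CPM. Plvap was low in this group, at 46.2 CPM (22.1 to 84.9) against 560.4 CPM, and so was Rgcc, at 125 CPM (82.2 to 181) against 849 CPM. The arterial-like cells thus carried arterial genes with little of the diaphragm and capillary genes.

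A group of 16 cells (subcluster 6) was lymphatic-like. Prox1, the transcription factor that sets lymphatic identity, was seen in all 16 at 915 CPM (728 to 1136) against 7.45 CPM in the other endothelial cells. Mmrn1, seen in 15, stood at 2377 CPM against 19.1 CPM, and Lyve1, seen in 11, at 2589 CPM against 21.0 CPM. Reln, a secreted glycoprotein, stood at 234 CPM against 5.12 CPM, and Nts, the neurotensin precursor, which was named for its lead after its values were seen, at 1317 CPM (1090.1 to 1577) in 15 cells against 5.12 CPM. Flt1, a blood vessel gene of the rule, stood at 44.6 CPM (12.2 to 114) against 768 CPM.

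The other 5 subclusters were left unnamed because each was enriched for markers of other cells. A group of 58 cells (subcluster 1) held the venous genes Ackr1 at 184 CPM (143 to 232) in 15 cells against 1.08 CPM in the other endothelial cells, Selp, the P-selectin that captures leukocytes, at 60.5 CPM against 1.62 CPM, and Lrg1 at 1238 CPM against 194 CPM. The same group held the pericyte genes Rgs5 at 1317 CPM against 803 CPM and Kcnj8 at 152 CPM against 29.6 CPM. At a finer resolution of 1.0, with 11 subclusters, 37 cells with Ackr1 and Selp formed a group with 5 venous and 0 pericyte markers, and a group of 19 cells held Kcnj8. Subcluster 4, with 32 cells at a median of 10652.5 UMIs, held 7 arterial markers beside smooth muscle genes, with the smooth muscle actin Acta2 at 2248 CPM against 182 CPM and the myosin Myh11 at 665 CPM against 45.4 CPM. Rergl, a Ras-like gene of smooth muscle named after its values were seen, stood at 142 CPM there against 3.21 CPM. With the other seed no group held 7 arterial markers beside smooth muscle ones. In that run 56 cells formed a group with 10 pericyte and smooth muscle markers and 3 arterial markers. Subclusters 5 and 7, with 17 and 13 cells, held 8 fibroblast markers and 8 macrophage markers, with the proteoglycan Dcn at 5306 CPM against 66.8 CPM in subcluster 5 and the complement gene C1qc at 978 CPM against 23.4 CPM in subcluster 7. Subcluster 2, with 78 cells, was set apart by principal cell RNA, with Gpx5 at 23497 CPM against 5271 CPM.

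**Figure D4:**
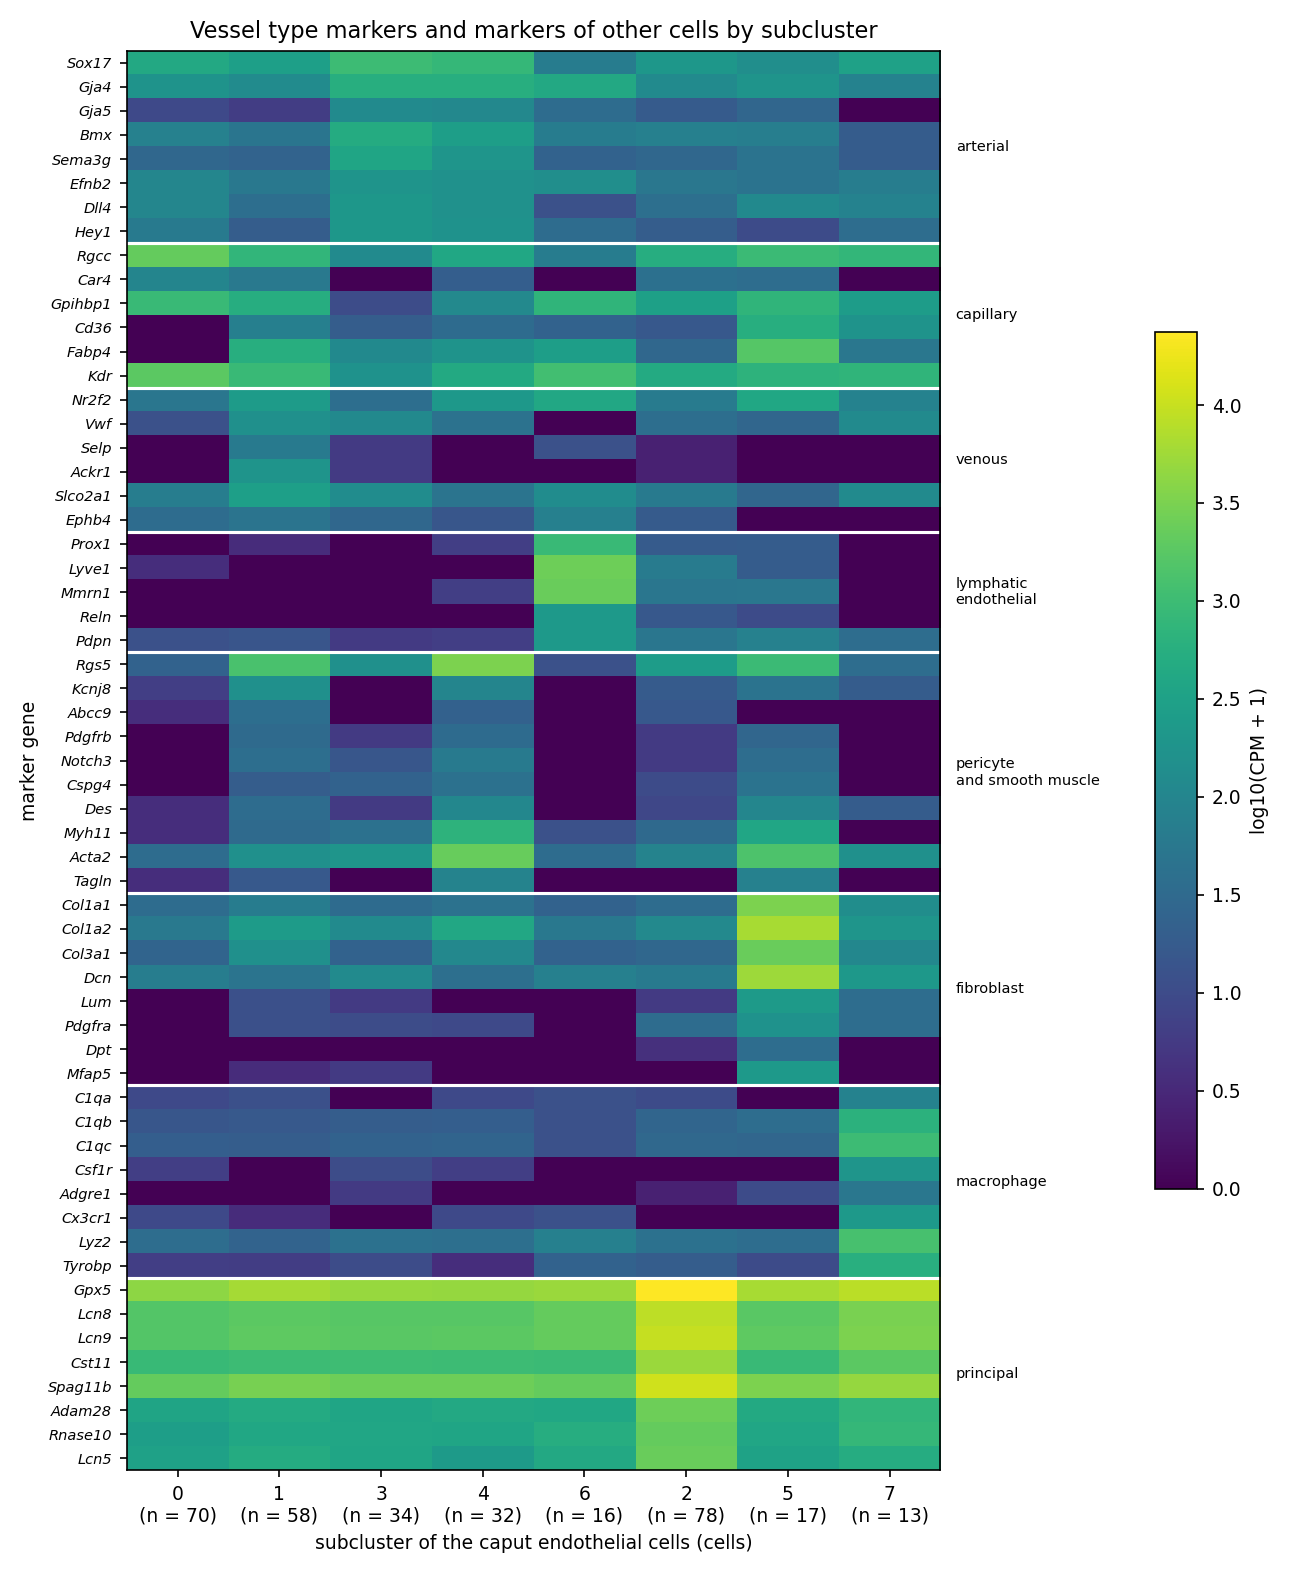
Level of marker genes (rows, grouped by vessel type or cell type) in the 8 subclusters of the 318 caput endothelial cells (columns, with cell numbers), as the log10 of CPM + 1 in colour. Subclusters 0, 3 and 6 carry capillary, arterial and lymphatic markers, while subclusters 1, 4, 5 and 7 carry endothelial markers beside those of pericytes, smooth muscle, fibroblasts or macrophages.

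Cells with and without Esm1 were compared for the capillary genes. The 91 cells with an Esm1 UMI had a median of 5281 UMIs, against 5058 in the 227 without one. Rgcc was detected in 81 of the 91 cells (89.0%), against 135 of the 227 (59.5%), and after thinning in 35 of 46 (76.1%) against 112 of 272 (41.2%). Its level was 1619 CPM in the cells with Esm1 against 443 CPM in those without, a ratio of 3.65 (3.32 to 4.03). Kdr stood at 1430.1 CPM against 519.6 CPM, Gpihbp1 at 732 CPM against 292 CPM and Cd300lg at 144 CPM against 32.6 CPM. Unc5b, a netrin receptor of sprouting vessels, stood at 50.1 CPM against 18.8 CPM. Pecam1 and Sox17 were alike in the 2 sets, at 631 CPM against 642 CPM and 408 CPM against 427 CPM.

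Genes of other vessel types were not all rarer where Esm1 was found. Gja4 was detected in 52 of 91 cells with Esm1 (57.1%) and 102 of 227 without (44.9%), Sox17 in 68.1% against 65.2% and Cd36 in 8.79% against 7.49%. Fabp4 stood at 72.0 CPM in the cells with Esm1 against 303 CPM in those without, a ratio of 0.238. It was detected in 10 of 91 cells with Esm1 and 34 of 227 without. Gkn3 was detected in 5 of 91 against 33 of 227, Ackr1 in 1 of 91 against 16 of 227 and Prox1 in 0 of 91 against 21 of 227. Gkn3 was detected in 16 of the 44 cells with Fabp4 and in 22 of the 274 without it. All of these are counts over cells of 1 library, which share their source.

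The caput endothelial cells were then set against those of corpus and cauda, with 72 and 20 cells and 340468 and 134543 UMIs. Of these, 46 corpus cells and 3 cauda cells met no pericyte and smooth muscle, fibroblast or macrophage rule, against 209 of the 318 in caput, and fibroblast markers summed to 1240.3 CPM in caput, 1104 CPM in corpus and 6392 CPM in cauda endothelial cells. Most of the cauda cells thus also carried markers of such cells, and the part of this in the cauda values below was not tested. Against the corpus 106 of 3565 genes (2.97%) were called higher in caput and 22 (0.617%) lower; against the cauda 81 of 3557 (2.28%) were higher and 9 (0.253%) lower. The balance of these counts depends on the minimum of UMIs, which a given CPM level reaches more easily in the deeper caput group. With no minimum, 112 genes were higher and 182 lower against the corpus, and 81 and 239 against the cauda. With the minimum kept and totals thinned to the smaller one, the counts were 40 and 21, and 27 and 10. Most of the genes called higher in the main comparison were ones that stood higher still in the other caput cells: all 8 principal cell markers were called higher in caput against both regions, and they summed to 28846 CPM in the caput endothelial cells, 247 CPM in those of the corpus and 29.7 CPM in those of the cauda. Of the 106 and 81 genes, 17 and 4 had a level in the caput endothelial cells at least as high as in the other caput cells. Of the 22 and 9 genes called lower, 9 and 5 met the same condition in their own region. Scaling by trimmed mean of M-values moved log2 ratios against the cauda by 0.29 and against the corpus by 0.07.

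The share of cells with vessel type markers was read in the 3 libraries. At least 2 lymphatic markers were detected in 17 of 318 caput cells (5.35%), 19 of 72 corpus cells (26.4%, 16.7 to 38.1%) and 7 of 20 cauda cells (35%, 15.4 to 59.2%), and after thinning in 5.03%, 24.3% and 36.8%. The lymphatic markers summed to 330 CPM in caput, 3586 CPM in corpus and 3189 CPM in cauda. At least 2 arterial markers were detected after thinning in 32.1%, 8.57% and 21.1% of caput, corpus and cauda cells, capillary markers in 50%, 55.7% and 31.6%, and venous markers in 8.18%, 4.29% and 21.1%. The dissociation of each region decides which cells are recovered, and its part in these shares was not tested.

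With all cells kept, the named genes lower in caput than in corpus were Lyve1, Fgl2, Olfm1, Mmrn1, Fabp4, Maf, Cd36, Aebp1 and Lbp, and those lower than in cauda were Maf, Lyve1, Fabp4, Fgl2 and Igfbp5. Lyve1 stood at 124 CPM in caput endothelial cells, 2047 CPM in corpus and 1591 CPM in cauda; Mmrn1 stood at 114 CPM in caput against 1034 CPM in corpus, a ratio of 0.110 (0.0931 to 0.129). Fgl2 stood at 111 CPM in caput against 1328 CPM in corpus and 1226 CPM in cauda. Maf, a transcription factor, stood at 64.8 CPM in caput, 532 CPM in corpus and 966 CPM in cauda. Within the caput, the 17 cells with 2 lymphatic markers held Lyve1 at 2333 CPM, Fgl2 at 1866 CPM and Maf at 729 CPM, while the other 301 held Lyve1 at 0.944 CPM. The comparison was therefore given again without the cells that had 2 lymphatic markers, which left 301 caput, 53 corpus and 13 cauda cells with 2118659, 207674 and 80936 UMIs.

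Without those cells 83 of 3387 genes (2.45%) were called higher in caput than in corpus and 9 (0.266%) lower; against the cauda 57 of 3384 (1.68%) were higher and 5 (0.148%) lower. The same minimum of UMIs applies, so the balance of these counts is not read. Leaving out cells by lymphatic markers takes away the UMIs of Lyve1 and Mmrn1 by construction, so that their calls were lost while their log2 ratios against the corpus were -5.16 and -5.81. Olfm1 at -3.14, Fgl2 at -2.00, Aebp1 at -1.51, Maf at -1.47 and Lbp at -1.17 were no longer called lower than in corpus. Ndufa4l2 at 2.41, Ces2e at 2.12 and Art3 at 2.04 were no longer called higher. Against the cauda the higher calls of H2-Q7 at 2.92, Esm1 at 2.06, Rgcc at 1.73 and Mal at 1.68 were lost, with caput still higher in each. Igfbp5, at 0.168 of the cauda level with all cells, had a log2 ratio of 0.51 without the lymphatic cells, Maf was at -0.41, Fgl2 at -0.90 and Lyve1 at -3.71.

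Among the genes named for the comparison with the corpus, Esm1 had the largest ratio. It stood at 155 CPM (139 to 173) in the 301 caput cells, against 9.63 CPM (1.17 to 34.8) in the 53 corpus cells, where it had 2 UMIs, a ratio of 16.1 (4.41 to 133). In the 13 cauda cells it had no UMI, which allows up to 45.6 CPM, and it was not called: set against a floor of 3 UMIs over the cauda group, the interval of its ratio was 1.42 to 20.4 and did not exclude 2-fold. By cells, Esm1 was seen in 91 of 318 caput endothelial cells, 2 of 72 in the corpus (2.78%) and 0 of 20 in the cauda, which by a limit of 3 counts allows a share of cells with a UMI, not of cells that express the gene, of up to 15%. After thinning to 1500 UMIs per cell the share was 15.7% in caput, with no such cell among 70 in the corpus and 19 in the cauda. In the thinned cells used above for cells with and without Esm1, 46 of the 318 caput cells had such a UMI, so the thinned share is not exact. The highest single caput cell held 27 of its 328 UMIs. The caput level thus came from many cells. With the caput UMIs thinned to the corpus total, the log2 ratio of Esm1 was 4.56, and the call was lost because fewer than the required 100 UMIs remained. Ssu2 at 4.05, Dkk2 at 3.46, Sema7a at 3.29 and Ptprr at 2.88 lost their calls in the same way.

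Further genes were higher in the caput cells with lymphatic cells left out. Ssu2 stood at 94.9 CPM in caput, 9.63 CPM in corpus and 0 CPM in cauda, a ratio against corpus of 9.85 (2.69 to 81.9). Dkk2, a secreted modulator of Wnt signalling, stood at 73.2 CPM in caput, 4.82 CPM in corpus and 24.7 CPM in cauda, a ratio of 15.2 (2.69 to 604). Sema7a, a membrane-bound semaphorin, stood at 104 CPM, 19.3 CPM and 49.4 CPM, a ratio of 5.39 (2.08 to 19.96). Ptprr stood at 190.2 CPM, 43.3 CPM and 98.8 CPM, a ratio of 4.39 (2.29 to 9.67). Each rested on fewer than 10 corpus UMIs, which is why the intervals are wide. Rgs5, a pericyte gene, stood at 939.7 CPM, 169 CPM and 469.5 CPM, a ratio of 5.58 (3.996 to 8.03), beside the 75 caput cells that met the pericyte rule.

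Rgcc was higher in caput at a smaller ratio, 820.3 CPM in caput, 303 CPM in corpus and 247 CPM in cauda, with ratios of 2.704 (2.10 to 3.53) and 3.32 (2.14 to 5.45) that did not meet the rule of size. Kdr stood at 767 CPM, 515 CPM and 284 CPM. Some genes that mark the population were close between caput and corpus. Of these, Pecam1, Flt1 and Plvap are genes of the rule, which was the same in each region. Like levels of such genes are thus partly set by the choice of cells. With all endothelial cells kept, the 7 genes of the rule summed to 4182 CPM in caput, 3378 CPM in corpus and 2832 CPM in cauda. Pecam1 stood at 646 CPM in caput, 640.4 CPM in corpus and 717 CPM in cauda, and Sox17 at 443 CPM, 462 CPM and 432 CPM. Flt1 and Plvap stood at ratios of 0.974 and 1.03 against the corpus, and of 2.10 and 2.04 against the cauda. Gpihbp1 stood at 401 CPM in caput, 472 CPM in corpus and 741 CPM in cauda, so the lipase carrier did not follow Rgcc.

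Fabp4 was lower in the caput cells. It stood at 238 CPM in caput, 3284 CPM in corpus and 4361 CPM in cauda, with ratios of 0.0726 (0.0646 to 0.0816) and 0.0547. With all endothelial cells kept, a UMI was seen in 44 of 318 cells (13.8%) in caput, 11 of 72 (15.3%) in corpus and 4 of 20 (20%) in cauda, with 1.46% in caput fibroblasts. After thinning the shares were 8.49%, 12.9% and 5.26%, with wide and overlapping intervals. In the thinned cells used above for cells with and without Esm1, 25 of the 318 caput cells had a Fabp4 UMI. Among the cells left after removal of the lymphatic ones, those with a Fabp4 UMI had a median of 2 such UMIs in caput and 68 in corpus. In the cauda 298 of the 353 UMIs (84.4%) came from 1 cell, and without it the level was 950.4 CPM; in the corpus the highest cell held 174 of 682 UMIs (25.5%), and without it the level was 2629 CPM. Cd36 stood at 59.5 CPM in caput, 491 CPM in corpus and 519 CPM in cauda, with a ratio of 0.121 against the corpus. For Cd36 1 cell held 55 of 126 UMIs in caput (33.6 CPM without it), 1 held 29 of 102 in corpus (356 CPM without it) and 1 of the 2 positive cauda cells held 28 of 42 (242 CPM without it). Both fatty acid genes thus lay in few cells in every region.

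Antigen and chemokine genes gave weaker results. Cd74, the invariant chain of class II antigen presentation, stood at 221 CPM in caput, 1098 CPM in corpus and 185 CPM in cauda, but 152 of its 228 corpus UMIs (66.7%) came from 1 cell and without that cell the corpus level was 386 CPM. Lrg1 stood at 316 CPM, 799 CPM and 161 CPM and Cxcl12 at 1180.5 CPM, 2331 CPM and 2236 CPM; neither was called. Slc38a5, an amino acid transporter on the list of barrier genes, was called higher, at 436 CPM in caput with no UMI in corpus or cauda, but stood at 1619 CPM in the other caput cells. Of the 20 capillary and lipid genes 0 were called higher and 2 lower than in corpus, and these were Fabp4 and Cd36.

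When cells that met a pericyte, smooth muscle, fibroblast or macrophage rule were left out as well, 1 cauda cell remained, too few to compare, with 195 caput and 30 corpus cells that held 1224193 and 96112 UMIs. Esm1 was still called higher against the corpus, at a ratio of 8.44 (2.31 to 70.1). Fabp4 had a ratio of 0.0514, but its 168 corpus UMIs came from 1 cell. Of 2096 genes tested, 65 (3.1%) were called higher and 5 (0.239%) lower, under the same minimum of UMIs. Of the genes named for this comparison, Esm1 and Fabp4 were the ones still called with both kinds of cell left out. Among those that lost the call, Ptprr had a log2 ratio of 2.79, Rgs5 of 2.55, Sema7a of 2.21 and Cd36 of -6.09, while Ssu2 and Dkk2 were at 1.53 and 0.93.

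**Figure D5:**
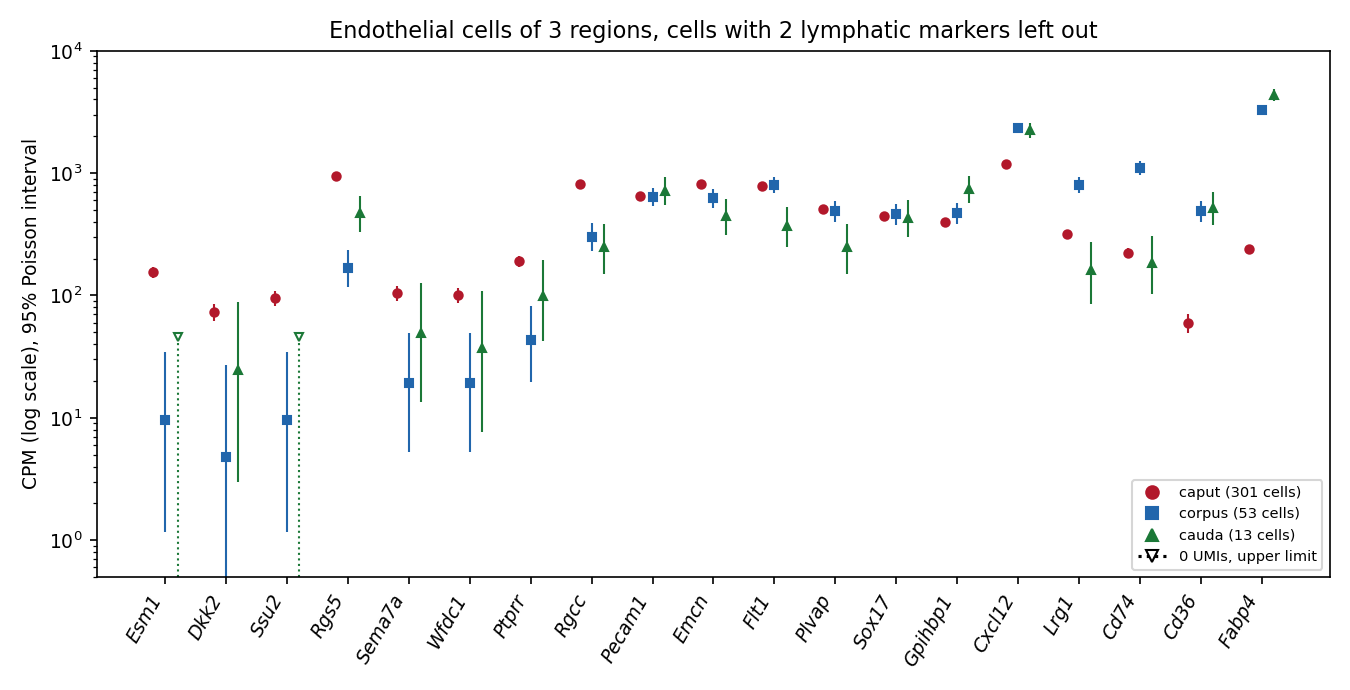
Level of 19 genes (y axis, CPM on a log scale, with 95% Poisson intervals) in endothelial cells of caput, corpus and cauda with cells of 2 lymphatic markers left out; an open triangle marks the upper limit where no UMI was seen. Esm1, Dkk2 and Ssu2 lie higher in caput than in corpus, and Fabp4 lies lower in caput. Pecam1, a gene of the rule, and Sox17 lie at one height in the 3 regions.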

How the data were processed

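Each region had 1 library. Per the submitters' processing notes, GRCm38.p6, STAR 2.7.3a and UMI-tools were used; neither the version of UMI-tools nor the step that called cells is stated there. The authors deposited a matrix of UMI counts for 24335 gene symbols, with the region in each cell's name. A minimum of 200 detected genes per cell removed 22 of 4961 caput cells. No doublet caller was run and no cell was removed as a doublet; cells that met a second class's rule (at least 3 of its markers and at least 8 UMIs per 10000) were counted and left out in turn.

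The endothelial cells and the gene lists were chosen with earlier results of these data known. Lists held 322 genes, of which 319 were in the matrix, 5 of them under older symbols. Named genes were the 20 with the largest ratio against other caput cells, up to 10 in each direction between regions whose level was not below that of the other cells of the higher region, up to 6 abundant genes of each list, and the cell type markers. Other list genes, among them Cgn, Vegfa, Mfsd2a and Hsd11b2, were given outside this rule and not by abundance. Cgn and Hsd11b2 were given as the genes called lower in their lists. Subclusters used 1000 variable genes, 20 principal components, 15 neighbours and the Leiden method at resolution 0.5, and took a vessel type's name from markers at least 2-fold enriched and seen in at least 10% of cells. Thinning drew 1500 UMIs per cell; 2 corpus cells and 1 cauda cell were shallower and left out. Where a gene had no UMI in a group, the ratio used a floor of 3 UMIs over the group. Alternatives were other scaling factors, filters, thresholds and members. Python 3.11.15, numpy 2.4.6, scipy 1.17.1, pandas 2.3.3, scanpy 1.11.5, igraph 0.11.9, leidenalg 0.10.2, scikit-learn 1.9.0, matplotlib 3.10.9, R 4.3.3, edgeR 4.0.16 and DESeq2 1.42.0 were used, the last pair for scaling factors only. Replicates were not available, so no test across samples was made.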

Additional observations from a re-analysis of the deposited data

How the results depend on the processing

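No paired analysis was possible because each region has 1 library. Of 818 gene values under alternatives, 707 kept their direction and size within counting error, 105 moved and 6 changed sign. A minimum of 20 UMIs or none leaves the ratios unchanged, so values under these settings could not move. With 500 or more genes detected the endothelial cells were the same 318, 72 and 20, so ratios between regions could not move either. Such values are counted among the 707, which therefore overstates how many could have changed and did not. Of the same 818 values, 82 no longer met the rule of size. Of the 48 pairs of a named gene and a comparison, 44 changed sign under none, and a gene could be in several pairs. The 318 caput cells became 325 with a sum of at least 5, 299 with at least 12, 295 with at least 4 genes, 339 with at least 2 genes and 239 with no Krt5, Foxi1 or C1qa UMI. Leaving out stromal marker cells or cells rich in principal RNA, and leaving out lymphatic cells against the other caput cells, was chosen after seeing the data.

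Against the other caput cells, 210 genes were called lower; the count was 416 with edgeR's TMM factors, 404 with DESeq2's size factors, 40 after thinning, 604 with cells weighted equally, 337 with a sum of at least 12 and 503 without cells rich in principal RNA. The 464 called higher became 964 with a minimum of 20 UMIs, 1387 with none, 300 without stromal marker cells and 275 without these and the lymphatic cells. Against the pericyte and smooth muscle cells, 172 higher became 48 after thinning, and 15 lower became 59 and 131 with a minimum of 20 UMIs and with none. Against fibroblasts, those minimums gave 602 and 629 higher and 359 and 386 lower. Against the corpus, 106 higher became 40 after thinning and 65 without stromal and lymphatic cells, and 22 lower became 74 and 182 with those minimums, 11 with 4 genes, 9 without lymphatic cells, 14 without stromal marker cells and 5 without both. Against the cauda, 81 higher became 27 after thinning, and 9 lower became 59 and 239 with those minimums and 5 without lymphatic cells. Lower minimums test more genes. Under both lower minimums 112 genes were higher in caput than in corpus and 81 higher than in cauda. With no minimum, more genes were thus lower than higher in caput against each region.

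Vessel type shares were 84.3% arterial, 94.97% capillary, 72.0% venous and 22.0% lymphatic with 1 marker, and 46.9%, 56.6% and 12.3% for the first 3 types with 3 markers; thinning gave 32.1%, 50% and 8.18%. Without stromal and lymphatic cells, 30.3% were venous and 0% lymphatic. The sign of the log2 ratio turned for Igfbp5 against the cauda (0.51) and for Lyve1 (-0.54) and Mmrn1 (-0.72) against other caput cells without lymphatic cells, for Lyve1 without stromal cells too (-0.75), and for Ndufa4l2 against the corpus without stromal cells (-0.76) and without both (-1.80). Apart from alternatives whose own construction removes cells or UMIs, the cause was not tested. With 72 and 20 cells, genes below 100 UMIs in both regions were not compared.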

Other observations

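Interferon-induced genes, a list not described above, had 9 of 18 called higher in the caput endothelial cells than in the other caput cells and none lower, with a median log2 ratio of 2.47. The antiviral genes Rsad2 and Isg15 stood at 173 CPM in the endothelial cells against 10.1 CPM in other caput cells and at 176 CPM against 22.9 CPM. Iigp1, an interferon-induced GTPase, stood at 169 CPM against 9.15 CPM and Ifit1 at 67.5 CPM against 5.84 CPM. Against the pericyte and smooth muscle cells 1 gene of the list was called higher, with a median of 1.25, and against fibroblasts 6, with a median of 1.71. Of the 18 genes, 16 were tested against the other caput cells and 13 against each of these classes. Over all tested genes, 3.87% were called higher against the other caput cells, 4.83% against the pericyte and smooth muscle cells and 7.52% against fibroblasts. A count of 1 among 13 is near the 4.83%, and nothing is read from it. Immediate early and heat shock genes, which tissue digestion is known to induce, had 1 of 18 called higher against the other caput cells, with a median of 1.19. The called gene was Ier3, at 941 CPM against 226 CPM, while Fos stood at 6088 CPM against 2227 CPM and Jun at 4897 CPM against 2429 CPM. A count of 1 among 18 is near the 3.87% over all tested genes, and nothing is read from that count.

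Steroid and retinoid genes had 2 of 16 called higher and 1 lower against the other caput cells, with a median of 0.20. The lower gene was Hsd11b2, an enzyme that inactivates glucocorticoids, at 0.894 CPM in the endothelial cells against 7.24 CPM in the other caput cells. Cyp26b1, an enzyme that degrades retinoic acid, was detected in 89 of the 318 cells at 85.0 CPM against 1.96 CPM, a ratio of 43.3, and stood at 29.4 CPM in corpus endothelial cells and 14.9 CPM in those of the cauda. Tsc22d3, a target of glucocorticoids, stood at 209 CPM against 49.1 CPM, and the glucocorticoid receptor Nr3c1 at 177 CPM against 50.7 CPM. Cell cycle genes had 0 of 15 called in either direction, with a median of -0.04. Mki67 was detected in 26 cells, at 40.2 CPM against 41.3 CPM. These values are averages over the 318 cells. In the subclusters at resolution 1.0, 11 of the cells formed a group whose leading genes included Mki67 and Top2a.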
